A study of Homo sapiens with 8 samples.

Results

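The peroxisome genes described here were 33 of the 36337 gene names on the arrays. They were taken by gene symbol from a fixed list and split into 12 peroxins, the proteins that build the organelle, and 21 enzymes and transporters of its metabolism. RNA was measured in FT293 cells, a derivative of the human embryonic kidney line HEK293 in which a transgene is placed at a single genomic site by recombination and is switched on by tetracycline. The 4 lines expressed GFP alone, or HuR, TIA1 or TIAR fused to GFP, and all 4 were given tetracycline for 3 days. The GFP line was the control. HuR, TIA1 and TIAR are RNA-binding proteins, and the comparison of TIA1- and TIAR- with HuR-expressing cells asks how the RNAs of cells overexpressing the TIA proteins differ from those of cells overexpressing HuR. Each line had 2 arrays, from separate biological replicates, and whether a line was 1 clone or a pool of clones is not given in the sources used here.

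Peroxisomes are small organelles with a single membrane that break down very long-chain and branched fatty acids and make the first intermediates of ether lipids. Their matrix enzymes are made in the cytosol and carried in by shuttling receptors, which dock at the membrane, release their cargo and are then ubiquitinated and pulled out again by an ATPase complex. Peroxisomal beta-oxidation yields hydrogen peroxide, which catalase removes, and kidney and liver are rich in the organelle.

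A gene was read by 60-base probes, and its level is given as the log2 of the processed signal minus the log2 of the array's 75th percentile signal, so that 0 is the brightness of the probe at that percentile and -1 is a signal lower by a factor of 2. The 33 genes had 49 probes, 17 for peroxins and 32 for enzymes and transporters. Of the genes, 19 had 1 probe, 12 had 2 probes and 2 had 3 probes, and where a gene had several the probe with the highest mean over the 8 arrays stood for it. Shown first are 5 genes whose level was lower in TIA1- than in HuR-expressing cells, with the whole probe that read each of them, because the fold changes below are those of these stretches of RNA. The probes are written as in the array files, from 5′ to 3′, with positions on hg19.

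The PECR probe lies on chromosome 2 (chr2:216903987-216904046, minus strand). Its capitals mark the last 3 codons and the stop codon of the transcript. In PECR these codons encode the carboxy-terminal signal by which the import receptor recognises a peroxisomal protein. The HSD17B4 (chr5:118867067-118872144), SLC27A2 (chr15:50526183-50528163) and FAR2 (chr12:29485623-29486586) probes, all on the plus strand, spanned 5078, 1981 and 964 bases of the genome with 60 bases of sequence and so cross an exon junction. No base of these 3 is capitalised. The DHRS4 probes (chr14:24429138-24429197 and chr14:24429166-24434983, plus strand) share 32 bases, in capitals, and the second crosses an exon junction that the first does not.
PECR: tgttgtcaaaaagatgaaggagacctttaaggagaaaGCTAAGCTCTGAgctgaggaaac
HSD17B4: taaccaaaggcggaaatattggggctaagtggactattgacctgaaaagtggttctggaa
SLC27A2: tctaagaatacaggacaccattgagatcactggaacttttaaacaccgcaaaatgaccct
FAR2: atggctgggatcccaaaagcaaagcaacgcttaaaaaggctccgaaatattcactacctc
DHRS4, first probe: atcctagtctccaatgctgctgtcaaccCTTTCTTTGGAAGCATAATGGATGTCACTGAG
DHRS4, second probe: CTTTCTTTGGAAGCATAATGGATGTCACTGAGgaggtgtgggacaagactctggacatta

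All 8 arrays were on 1 slide, and between 53.2% and 58.5% of 50599 probes were well above background on 7 of them, against 86% on GFP 1. The GFP 1 array also had the highest mean local background, 89.97 against 37.41 to 43.49 intensity units. Replicate arrays differed at the 33 genes by a median of 0.30 log2 units in the GFP line and by 0.071, 0.13 and 0.18 in the HuR, TIA1 and TIAR lines. Of the HEK293 markers, 6 of 7 (KRT8, KRT18, VIM, CDH2, NEFL and PAX2) were well above background on all 8 arrays and NEFM on 7. Among 8 markers of other cell types the blood cell gene PTPRC stood at 1.12 on GFP 1 and at -4.66 to -3.94 on the other 7 arrays, HBB, a globin of red cells, at -2.37 against -7.95 to -6.78, and the T-cell gene CD3E at -2.76 against -7.24 to -5.23. The part of these features of GFP 1 in the results was not tested, and the calls against the GFP line are given with and without that array. The brighter probe of TIAL1, the gene of TIAR, stood at 4.87 and 4.98 in the TIAR line and at 1.63 to 2.52 in the others, whereas the other TIAL1 probe stood at -4.12 and -3.85 in the TIAR line, within the -4.36 to -3.45 of the others. The TIA1 probes were lower in the TIA1 than in the HuR line, and the ELAVL1 (HuR) probe stood at 0.33 and 0.42 in the HuR line and at 0.91 and 1.09 in the GFP line. Whether these probes lie within the introduced cDNAs is not known here, so the TIA1 and ELAVL1 probes do not check their labels. The GFP and TIA1 arrays filled 1 row of the slide and the TIAR and HuR arrays the other. Row and line thus cannot be told apart in TIA1 versus HuR, TIAR versus TIA1, TIAR versus GFP or HuR versus GFP.

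In TIA1- versus HuR-expressing cells, the RNAs of several enzymes of fatty acid metabolism were lower, that of 1 transporter was higher, and none of the docking proteins and import receptors was called. A gene was called up- or downregulated where limma, with Benjamini-Hochberg adjustment over all probes tested, gave an adjusted p under 0.05 and the level differed by a factor of 2 or more. All 33 genes were tested, since in either line or both each had a probe that both arrays read well above background. Of them 6 were downregulated (DHRS4, FAR2, HSD17B4, PECR, PEX6 and SLC27A2), or 18.2%, against 4.73% of the 21223 gene names tested. A single member, ABCD3, was upregulated, or 3.03%, against 8.45% of all gene names. With the deposited log2 table these background shares were 2.54% downregulated and 3.55% upregulated. The downregulated members were 5 of 21 enzymes and transporters and 1 of 12 peroxins. The median log2 fold change was -0.45 over the enzymes and transporters, -0.13 over the peroxins and 0.084 over all gene names tested. That of the peroxins was -0.25 with quantile normalization, -0.26 without HuR replicate 1 and -0.048 without TIA1 replicate 2. The study described peroxisomal genes from these same arrays, so the direction of these counts is not independent evidence. Of the 8 markers of other cell types, 5 were tested, and the liver gene ALB rose by 2.82 and the fibroblast gene LUM fell by 1.65 on the log2 scale in TIA1 versus HuR, while ALB and DCN rose by 2.61 and 1.46 in TIAR. Their summed level, in units of the 75th percentile signal, was 0.427 to 0.461 on the TIA1, 0.533 to 0.553 on the HuR, 0.681 to 0.771 on the TIAR and 0.16 to 2.79 on the GFP arrays, with HBB and PECAM1 well above background on 1 array each and CD3E on 2, and their part in the results was not tested. In bulk RNA, fewer cells that express a gene and less RNA per cell cannot be told apart.

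In TIAR- versus HuR-expressing cells, 5 members were downregulated (FAR2, HSD17B4, PECR, PEX2 and SLC27A2), or 15.2%, against 2.84% of 21503 gene names, and ABCD3 was again the single member upregulated, against 7.38% of all gene names. These background shares were 3.46% and 5.16% with quantile normalization and 1.63% and 2.88% with the deposited log2 table. The median log2 fold change was -0.54 over the enzymes and transporters, -0.10 over the peroxins and 0.064 over all gene names. That of the peroxins was -0.0275 with the deposited log2 table, -0.047 without TIAR replicate 1 and -0.16 without TIAR replicate 2. The 2 HuR arrays serve in both comparisons, so their results are set side by side and are not independent of each other. Some genes lay close to the threshold of -1 in TIAR versus HuR. FAR2 passed it with a log2 fold change of -1.0009, while PEX6 missed it with -0.9952, FAR1 with -0.9495, DHRS4 with -0.9452 and AGPS with -0.9424. Without HuR replicate 1, and likewise without HuR replicate 2, no member was called in TIAR versus HuR. Each of these fits has a single HuR array. With no filter on dim probes 2 members were downregulated (HSD17B4 and PECR), against 1.18% of all gene names. With all 8 arrays in 1 fit there were 3 (HSD17B4, PECR and PEX2), against 2%. The deposited log2 table gave 3 (PECR, SLC27A2 and FAR1, which was not among the 5), against 1.63%.

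**Figure D1:**
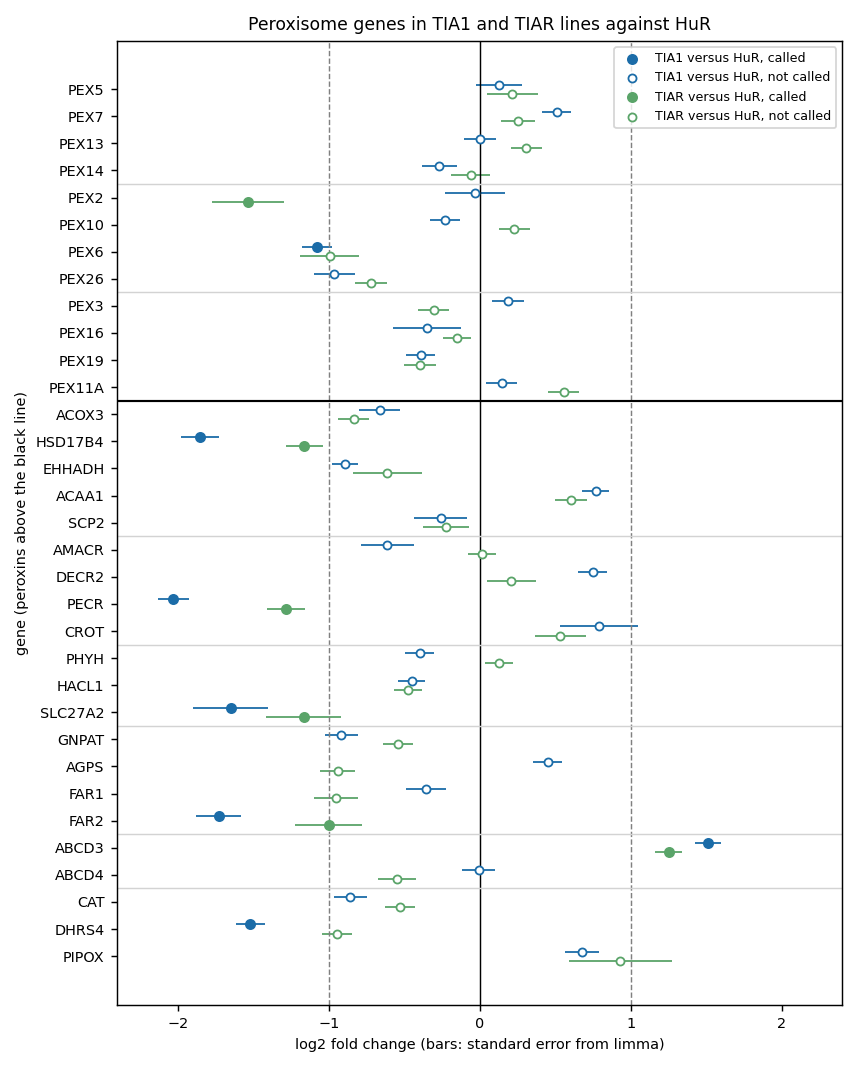
Log2 fold change (x axis) of the representative probe of each of the 33 genes (y axis) in TIA1 (blue) and TIAR (green) against HuR, with limma standard errors as bars. Filled points were called, and dashed lines mark a fold change of 2. The called points to the left of -1 are mostly enzymes below the black line, and ABCD3 alone lies beyond 1.

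Among the enzymes of the beta-oxidation spiral, the bifunctional protein HSD17B4, which hydrates and dehydrogenates very long-chain and branched acyl-CoAs, changed the most. HSD17B4 stood at 3.67 and 3.66 on the HuR arrays, at 2.74 and 3.01 on the GFP arrays, at 2.63 and 2.38 on the TIAR arrays and at 1.94 and 1.68 on the TIA1 arrays. The 4 TIA1 and TIAR arrays all lay below the 4 GFP and HuR arrays, and the HuR arrays above all others. Its log2 fold change was -1.85 ± 0.12 (SE, n = 2 per line, limma adjusted p = 0.0028) in TIA1 and -1.16 ± 0.12 (adjusted p = 0.00869) in TIAR versus HuR, a fold change of 3.61 and 2.24. With the deposited log2 table the call in TIAR was lost.

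The other genes of the spiral passed no call. ACOX3, an oxidase that starts the cycle for branched substrates, differed by -0.66 on the log2 scale in TIA1 and -0.84 in TIAR versus HuR, and EHHADH, the other bifunctional protein, by -0.89 and -0.61. ACAA1, a thiolase of the last step, went the other way with 0.77 and 0.61. The ACAA1 values were 2.63 and 2.63 in TIA1 and 2.38 and 2.55 in TIAR, above all GFP and HuR arrays, which ranged from 1.63 to 2.01. SCP2, whose gene encodes a thiolase and a sterol carrier, differed least in this group, by -0.26 and -0.23.

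Of the enzymes that prepare unusual fatty acids for the cycle, PECR, an NADPH-dependent enoyl-CoA reductase, had the largest fold change of all 33 genes in TIA1 versus HuR. PECR stood at -0.0037 and 0.020 on the HuR arrays, at -1.13 and -0.55 on the GFP arrays, at -1.40 and -1.15 on the TIAR arrays and at -1.95 and -2.10 on the TIA1 arrays. The lines kept this order with no overlap between neighbours, although GFP 1 and TIAR 2 were close to each other. The log2 fold change was -2.03 ± 0.10 (limma adjusted p = 0.0021) in TIA1 and -1.28 ± 0.13 (adjusted p = 0.00766) in TIAR versus HuR, or 4.09- and 2.44-fold.

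AMACR, the racemase for branched acyl-CoAs, had log2 fold changes of -0.61 and 0.016 in TIA1 and TIAR versus HuR. DECR2, a dienoyl-CoA reductase, had 0.75 and 0.21, and CROT, which hands shortened chains to carnitine for export, had 0.79 and 0.53. None of these 3 was called. DECR2 was lowest on the GFP arrays, at 1.68 and 2.21, against 2.94 to 3.77 on the other 6. CROT had the largest gap between the GFP arrays, -1.55 on GFP 1 and -2.83 on GFP 2, so its level in that line is poorly fixed.

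SLC27A2, a very long-chain acyl-CoA synthetase and fatty acid transporter that activates substrates for the organelle, stood at 2.00 and 2.09 on the HuR arrays and at 1.79 and 2.13 on the GFP arrays. It stood at 0.059 and 0.73 on the TIA1 and at 0.55 and 1.21 on the TIAR arrays. All 4 TIA1 and TIAR arrays lay below the HuR and GFP arrays, while the TIA1 and TIAR arrays overlapped each other, as did HuR and GFP. The log2 fold change was -1.65 ± 0.25 (limma adjusted p = 0.0113) in TIA1 and -1.17 ± 0.25 (adjusted p = 0.0336) in TIAR versus HuR. The call in TIA1 was lost when either HuR array was left out and when dim probes were kept, and that in TIAR in these settings, without TIAR replicate 1 and with all 8 arrays in 1 fit. Of the alpha-oxidation enzymes, which remove a single carbon from phytanic acid, HACL1, the lyase, had -0.45 and -0.48, and PHYH, the hydroxylase, had -0.40 and 0.12.

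In ether lipid synthesis, GNPAT and AGPS catalyse the first steps inside the organelle and FAR1 and FAR2 supply the fatty alcohol. FAR2 stood at 0.40 and 0.27 on the HuR arrays, at -0.31 and -0.059 on the GFP arrays, at -0.38 and -0.96 on the TIAR arrays and at -1.56 and -1.23 on the TIA1 arrays. The order was the same as for PECR, although GFP 1 and TIAR 1 were close to each other. Its log2 fold change was -1.73 ± 0.15 (limma adjusted p = 0.00388) in TIA1 and -1.0009 ± 0.22 (adjusted p = 0.037) in TIAR versus HuR. The latter call was lost in 7 of 12 refits, among them quantile normalization, the deposited log2 table and leaving out either HuR array or TIAR 2. GNPAT had -0.92 and -0.54, with the HuR arrays at 3.47 and 3.38 above the other 6, which ranged from 2.43 to 3.05. FAR1 had -0.36 in TIA1 and -0.95 in TIAR and was not called.

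AGPS, the synthase that exchanges the acyl for an alkyl chain, was the single member called between TIAR- and TIA1-expressing cells, while 16 of 32 had an unadjusted p under 0.05, or 50% against 23.3% of all gene names. Its representative probe stood at -0.16 and 0.029 on the TIAR arrays, at 1.28 and 1.36 on the TIA1 arrays, at 0.84 and 0.91 on the HuR arrays and at 1.14 and 1.39 on the GFP arrays. Only the TIAR arrays stood apart. TIAR was lower than TIA1 by -1.39 ± 0.13 on the log2 scale (limma adjusted p = 0.0263), 1 of 32 members tested, against 1.03% of 20763 gene names downregulated and 1.33% upregulated. The other AGPS probes gave -0.0029 ± 0.11 and -0.17 ± 0.11 for the same difference. The representative probe (chr2:178408390-178408449, plus strand of hg19) lies 5584 and 4548 bases downstream of the others, and the difference was thus seen with 1 of 3 probes. The call was lost when any of the 4 TIA1 and TIAR arrays was left out, with no filter on dim probes and with the replicate number as a block.

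The ABC transporters went apart. ABCD3, a transporter of the peroxisomal membrane that imports branched fatty acids and bile acid precursors, was the single member upregulated. ABCD3 stood at 0.41 and 0.42 on the TIA1 arrays, at 0.14 and 0.17 on the TIAR arrays, at -0.19 and -0.13 on the GFP arrays and at -1.09 and -1.10 on the HuR arrays. With this representative probe the lines kept a clear order with HuR far below the rest. The log2 fold change was 1.51 ± 0.089 (limma adjusted p = 0.00246) in TIA1 and 1.25 ± 0.091 (adjusted p = 0.00528) in TIAR versus HuR, or 2.85- and 2.38-fold. The other ABCD3 probe rose by 1.02 ± 0.15 in TIA1 and had 0.78 ± 0.16 in TIAR versus HuR. On that probe HuR did not lie below GFP, with -2.39 and -2.05 against -2.54 and -1.58. The log2 fold change of HuR versus GFP was -0.15 there and -0.93 with the representative probe. Both probes were designed to the same transcript and list only that 1 RefSeq transcript. Whether they read other transcripts of ABCD3 is not known here. ABCD4, a relative that works in cobalamin release from lysosomes, had -0.0063 and -0.55.

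DHRS4, an NADPH-dependent reductase of retinal and other carbonyls, stood at 2.26 and 2.33 on the HuR arrays, at 1.78 and 2.17 on the GFP arrays, at 1.40 and 1.30 on the TIAR arrays and at 0.81 and 0.74 on the TIA1 arrays. These values fell into the same order as those of PECR. Its log2 fold change was -1.52 ± 0.095 (limma adjusted p = 0.0026) in TIA1 and -0.95 ± 0.099 (adjusted p = 0.00853) in TIAR versus HuR, the latter short of a fold change of 2. The second probe, which shares 32 bases with the first, gave -1.78 ± 0.091 and -1.06 ± 0.099 and passed in both comparisons, and the third gave -1.09 ± 0.091 and -0.75 ± 0.098. Accessions listed for the second probe and the third matched DHRS4 and its near-identical neighbour DHRS4L2, so what they read is uncertain between these genes.

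CAT, catalase, had log2 fold changes of -0.86 in TIA1 and -0.53 in TIAR versus HuR and was not called. PIPOX, an oxidase of pipecolic acid, had 0.67 and 0.93, with TIAR arrays that differed by 0.94 from each other.

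**Figure D2:**
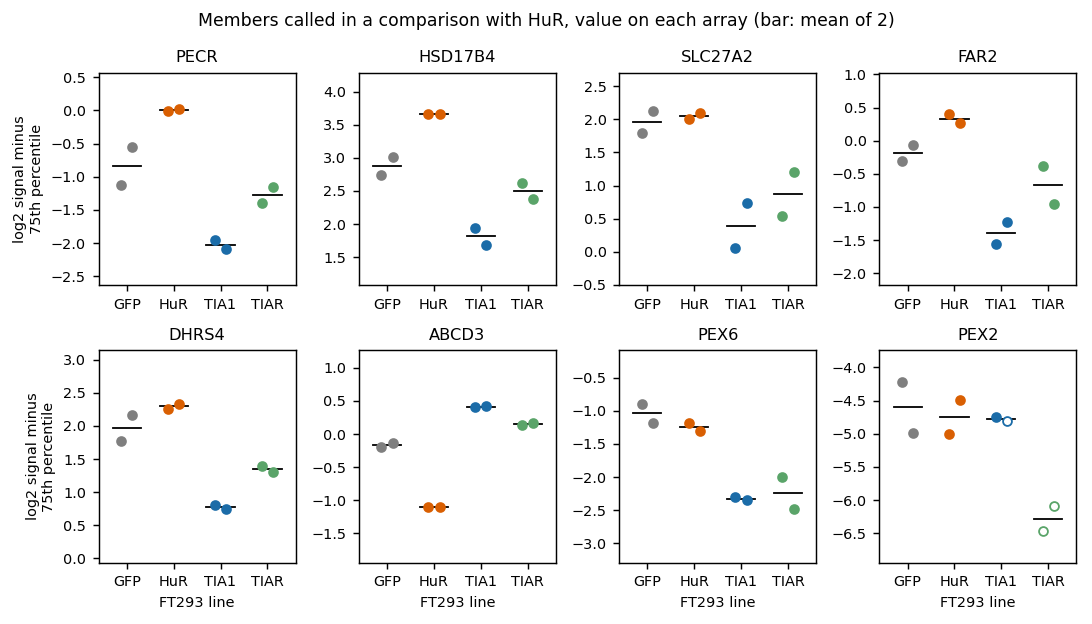
Level (y axis, log2 signal minus the array's 75th percentile, the same span of log2 units in each panel) of the 8 genes called in a comparison with HuR, on each array of the GFP, HuR, TIA1 and TIAR lines (x axis). Points are arrays, bars are means of 2, and open PEX2 points were not well above background. In PECR, HSD17B4, FAR2 and DHRS4 the HuR arrays are highest and TIA1 lowest, and in ABCD3 this order is turned round.

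The peroxins are given by role. Of the 4 docking proteins and import receptors limma called 0 in TIA1 or TIAR versus HuR. In each comparison 1 of the 4 had an unadjusted p under 0.05, against 52.5% and 45.5% of all gene names. PEX5, the receptor for the carboxy-terminal signal, had log2 fold changes of 0.13 and 0.21 in TIA1 and TIAR versus HuR, and PEX7, the receptor for the amino-terminal signal, had 0.51 and 0.25. PEX13 and PEX14, the docking proteins, had 0.0021 and 0.31, and -0.27 and -0.060. The other PEX13 probe gave 0.62 and 0.28, and the other PEX7 probe gave -0.098 and 0.025.

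In the machinery that ubiquitinates receptors and returns them to the cytosol, PEX6, an ATPase of the export complex, was downregulated in TIA1 versus HuR. PEX6 stood at -1.19 and -1.30 on the HuR arrays, at -0.89 and -1.18 on the GFP arrays, at -1.99 and -2.48 on the TIAR arrays and at -2.30 and -2.35 on the TIA1 arrays. All TIA1 and TIAR arrays lay below all others. The log2 fold change was -1.08 ± 0.098 (limma adjusted p = 0.00418) in TIA1 and -0.9952 ± 0.20 (adjusted p = 0.028) in TIAR versus HuR. The other PEX6 probe, 635 bases away on chromosome 6, gave -0.076 ± 0.17 and -0.23 ± 0.10 and no call. The PEX6 call was lost with normexp background correction, with the deposited log2 table and without HuR replicate 1.

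PEX26, the membrane anchor of that ATPase complex, had log2 fold changes of -0.96 and -0.72, with the TIA1 and TIAR arrays between -2.60 and -2.13 and the others between -1.52 and -1.02. Its other probe gave -0.020 and -0.39. For both PEX6 and PEX26 the lower level in TIA1 was thus seen with 1 of 2 probes.

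PEX2, a subunit of the ubiquitin ligase, was near the floor of the arrays. PEX2 stood at -5.00 and -4.48 on the HuR arrays, at -4.22 and -4.99 on the GFP arrays, at -4.74 and -4.80 on the TIA1 arrays and at -6.47 and -6.09 on the TIAR arrays. On both TIAR arrays and on TIA1 2 the probe was not well above background. The log2 fold change of PEX2 in TIAR versus HuR was -1.54 ± 0.24 (limma adjusted p = 0.0171), and it ranged from -1.81 to -0.34 over the refits. Taking for each TIAR array the lowest signal among probes well above background as a floor, PEX2 was 2.07-fold lower than in HuR-expressing cells. This floor estimate is not a firm bound, since PEX2 at -4.80 on TIA1 2 was already not well above background. Like the floor estimates of other genes below, it was computed only with the processing used for the calls. A smaller difference was fitted in other settings. The call was lost with normexp background correction, with the deposited log2 table, when dim probes were kept, and when either HuR array was left out. PEX10, the other ligase subunit measured, had -0.23 and 0.23.

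Among the peroxins that insert membrane proteins, PEX3 had log2 fold changes of 0.19 and -0.31, PEX16 of -0.35 and -0.15, and PEX19, a soluble chaperone of membrane proteins, of -0.39 and -0.40. PEX11A, which acts in division of the organelle, had 0.14 and 0.55. None was called.

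**Figure D3:**
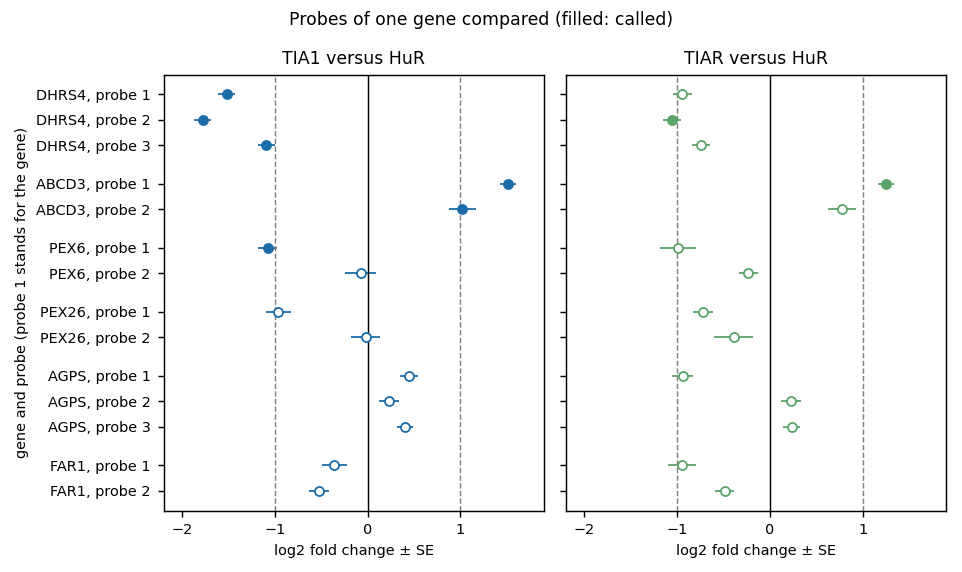
Log2 fold change with limma standard error (x axis) of every probe (y axis) of 6 genes with several probes, in TIA1 (left) and TIAR (right) against HuR. Filled points were called, and the probe listed first stands for the gene. The DHRS4 and ABCD3 probes of a gene lie on 1 side of 0, while the first probe stands apart for PEX6 and PEX26 in TIA1 and for PEX6 and AGPS in TIAR.

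No member was called against the GFP line. In TIA1, TIAR and HuR versus GFP limma called 0 of 33 members and 0% of all gene names in either direction, while 17, 10 and 10 members had an unadjusted p under 0.05, or 51.5%, 30.3% and 30.3%, against 21.4%, 16.1% and 16.9% of all gene names. Without GFP 1 these were 21, 13 and 17 members, against 35.8%, 30.7% and 42% of all gene names. The largest values in TIA1 versus GFP were 1.77 for DECR2 and -1.56 for SLC27A2, and 1.502 and -1.74 without GFP 1. In TIAR versus GFP they were -1.41 for ACOX3 and -1.34 for AGPS, and -0.78 and -1.46 without GFP 1. Thus 1 array decided the ACOX3 value. The other AGPS probes gave 0.11 and 0.73 in TIAR versus GFP. In TIA1 versus GFP the representative PEX6 probe gave -1.29 and the other 0.026. The other FAR1 probe in TIAR and the other DHRS4 and PEX26 probes in TIA1 gave negative values against GFP. PEX2 was not well above background in TIAR, and its floor estimate there was 2.27-fold lower than in GFP, or 1.74-fold without GFP 1. In HuR versus GFP the largest were -1.22 for PEX5 and 1.02 for DECR2, and -0.80 and 0.76 without GFP 1. Without GFP replicate 1, 7 members were downregulated in TIA1 versus GFP (DHRS4, FAR2, HACL1, HSD17B4, PECR, PEX26 and PEX6), against 4.25% of all gene names, and DECR2 was upregulated. In TIAR versus GFP 2 members (AGPS and FAR1) were then downregulated, against 1.53%. In HuR versus GFP no member was called without GFP replicate 1. Without GFP replicate 2 instead, 5 members were downregulated in TIA1, 5 in TIAR and 4 in HuR versus GFP, but then 39.8%, 37.1% and 43.5% of all gene names were too.

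How the arrays of the lines fell out is given as a count, with no test. On 14 of 33 genes all 4 TIA1 and TIAR arrays lay below all 4 GFP and HuR arrays, against 9.45% of 21839 gene names measured. These were 10 of 21 enzymes and transporters (ACOX3, CAT, DHRS4, EHHADH, FAR1, FAR2, HACL1, HSD17B4, PECR and SLC27A2) and 4 of 12 peroxins (PEX6, PEX16, PEX19 and PEX26). The count uses representative probes. The other PEX6 and PEX26 probes and the third DHRS4 probe did not keep this order. PEX16 kept it narrowly, with 1.52 on TIA1 1 and 1.54 on HuR 1. The reverse order, with the TIA1 and TIAR arrays above the others, held for 2, ABCD3 and ACAA1, against 13.4%. Without GFP 1 these counts were 15 and 3, against 15.5% and 20% of all gene names. The HuR arrays lay above the other 6 on 7 genes (DHRS4, EHHADH, FAR2, GNPAT, HSD17B4, PECR and SCP2), all of them enzymes, against 11.8%, and below the other 6 on 5 (ABCD3, CROT, PEX7, PEX11A and PIPOX), against 15.6%. Without GFP 1 these counts were 7 and 6, against 14% and 21.4%. Of the 7, the other SCP2 probe did not keep the order, and both other DHRS4 probes did. Of the 5, the other ABCD3, CROT and PEX7 probes did not keep it, CROT narrowly. The genes in both the 14 and the 7 are DHRS4, EHHADH, FAR2, HSD17B4 and PECR. These definitions by themselves place their GFP arrays between.

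**Figure D4:**
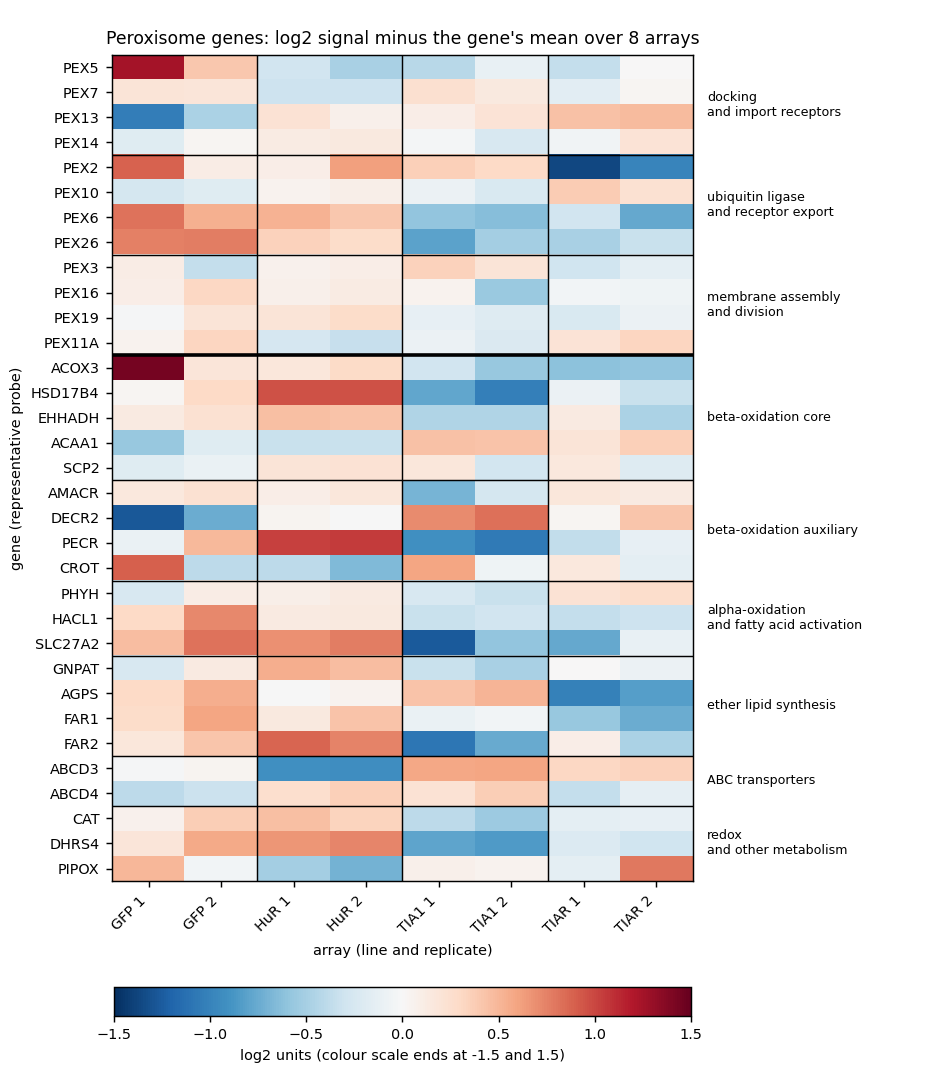
Log2 signal of each gene's representative probe minus its mean over the 8 arrays (colour, red higher and blue lower), for 33 genes (rows, peroxins above the thick line and grouped by role) on 8 arrays (columns). HSD17B4, PECR, FAR2 and DHRS4 are red on the HuR and blue on the TIA1 arrays, and ABCD3 shows the opposite.

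Genes of neighbouring pathways were counted in the same way, to be read against the 4.73% and 8.45% of all gene names that were down- and upregulated in TIA1 and the 2.84% and 7.38% in TIAR versus HuR. Of 8 other peroxins and division proteins tested, limma called 0 in TIA1 and 0 in TIAR versus HuR. An unadjusted p under 0.05 was reached by 4 and 2 of the 8, against 52.5% and 45.5% of all gene names. Of 37 other peroxisomal proteins tested in TIA1 versus HuR, 8 were downregulated and 0 upregulated, with a median of -0.47. Among them were EPHX2, an epoxide hydrolase (-1.19), LONP2, a matrix protease (-1.18), and TYSND1, which trims imported enzymes (-1.08). ACOT4, a thioesterase, was not well above background in TIA1, where its floor estimate was 1.41-fold lower. In TIAR versus HuR, EPHX2 was downregulated (-1.11) among 38 tested with a median of -0.37. BAAT, which conjugates bile acids, was upregulated, with a floor estimate of 1.57-fold.

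PPAR receptors are nuclear receptors that drive many of these genes. Of 7 receptors, partners and coactivators tested, limma called 0 in TIA1 versus HuR. An unadjusted p under 0.05 was reached by 3 of the 7, against 52.5% of all gene names. In TIAR versus HuR limma called 1 of the 7, PPARA (1.11 ± 0.11, limma adjusted p = 0.00829). Of 20 PPAR targets outside the peroxisome, 5 were downregulated and 3 upregulated in TIA1 versus HuR, against 4.73% and 8.45% of all gene names. PCK2, the mitochondrial form of the gluconeogenic enzyme, fell by 2.36 on the log2 scale and GK, glycerol kinase, fell by 2.14. ANGPTL4, an inhibitor of lipoprotein lipase, rose by 1.96. PCK1, the cytosolic form, was higher, with a floor estimate of 2.70-fold. In TIAR versus HuR, ACSL3, an acyl-CoA synthetase, was downregulated (-1.09), 1 of 20, against 2.84% of all gene names. PCK1 (floor estimate of 1.94-fold), ANGPTL4 (1.46) and PDK4 (1.01) were upregulated, 3 of 20, against 7.38%.

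Of 19 mitochondrial beta-oxidation genes, 3 were downregulated and 2 upregulated in TIA1 versus HuR, against 4.73% and 8.45% of all gene names. In TIAR versus HuR these were 2 and 1 of 19, against 2.84% and 7.38%. DECR1, the mitochondrial counterpart of DECR2, was higher, with floor estimates of 29.0-fold in TIA1 and 27.8-fold in TIAR. On the HuR arrays its probe was not well above background. CPT2, the inner carnitine palmitoyltransferase, fell by 1.39 in TIA1 on the log2 scale and CPT1A, the outer one, rose by 1.26. ACADL, an acyl-CoA dehydrogenase, had -1.12 in TIA1 and -1.05 in TIAR, and HADH, a dehydrogenase of the same cycle, had -1.11 and -1.01, all of them called.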

How the data were processed

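Total RNA of 4 FT293 lines, 2 biological replicates each, was hybridised to 1-colour Agilent human arrays, 1 array per replicate. The deposited processed signals are linear intensity values that the authors obtained with Agilent Feature Extraction 10.7.3.1, background-subtracted and not scaled between arrays. The authors' series table holds log2 values, with column medians between 7.36 and 7.51, and its background correction and normalization are not given in the sources used here. The submitters' processing notes name limma. A label protocol names a rat array, whereas the design and the probes are human, and 1 label of TIA1 replicate 2 reads TIA2 while its title and genotype read TIA1.

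After removal of outlier spots, each processed signal was divided by its array's 75th percentile and put on a log2 scale, and duplicate spots were averaged. Probes that both arrays of either compared line read well above background were tested on the 4 arrays of each comparison with limma 3.58.1 in R 4.3.3 (lmFit and eBayes, Benjamini-Hochberg adjustment over all tested probes). Calls required an adjusted p under 0.05 and a 2-fold difference or more. A gene was represented by its brightest probe. All 33 members are named, the called ones with every array, and of each further list up to 4 called genes with the largest change. The members, lists and tests were chosen with earlier results of these data known. The fit was run on simulated data for TIA1 and TIAR versus HuR only. All simulated probes had the same spread and were well above background on all 4 arrays. Unequal spread, dim probes and the comparisons with GFP were thus not covered. Alternatives were normexp on mean and background signals with offset 50, quantile normalization, the authors' table, other filters, 1 fit over 8 arrays, a replicate block, leaving out each array and counting any probe. The data.table package (1.17.8) read the tables and matplotlib (3.10.9) drew the plots. Probe accessions were matched to RefSeq names (GRCh38.p14), and 33 of 33 symbols matched. No genome was used, and probes were given no exon or untranslated region. The number of arrays, 2 per line, limits the precision.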

Additional observations from a re-analysis of the deposited data

Results flagged for a closer look

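AGPS changed differently in the TIA lines against HuR. On the log2 scale its representative probe differed by 0.45 ± 0.095 in TIA1 and by -0.94 ± 0.11 in TIAR versus HuR, and the difference of TIAR minus TIA1 was -1.39 ± 0.13 (limma adjusted p = 0.0263), with both TIAR arrays below both TIA1 arrays. The other AGPS probes did not pass for this difference. The TIA1 and TIAR arrays lay in different rows of the slide, so row and line cannot be told apart in this difference. No group had enough arrays for a search for single outlying arrays.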

How the results depend on the processing

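Counts of called members are given as downregulated and upregulated. In TIA1 versus HuR the 6 and 1 ranged over the settings other than leaving out an array from 5 to 8 and stayed at 1, and from 4 to 7 and 1 to 2 when an array was left out. In TIAR versus HuR the 5 downregulated members became 3 with the authors' table, 2 with no filter on dim probes and 3 with all 8 arrays in 1 fit, and leaving out an array gave 0 to 6 and 0 to 2. In TIA1 versus GFP the 0 and 0 became 7 and 1 with all 8 arrays in 1 fit and 0 to 7 and 0 to 2 when an array was left out. In TIAR versus GFP they became 5 and 2 with all 8 arrays in 1 fit and 0 to 5 and 0 to 2 when an array was left out. In HuR versus GFP, leaving out an array gave 0 to 4 and 0 to 3. In TIAR versus TIA1 the 1 downregulated member, AGPS, became 0 with no filter on dim probes, 0 to 0 when an array was left out, and 0 with the replicate block. In 1 fit over all 8 arrays, 4.06% and 4.92% of all gene names were down- and upregulated in TIA1 versus GFP. These shares were 2.27% and 3.68% in TIAR versus GFP and 2% and 4.47% in TIAR versus HuR. With no filter on dim probes they were 1.18% and 3.8% in TIAR versus HuR. In TIAR versus TIA1 they were 0% and 0% with no filter on dim probes and with the replicate block. The causes were not tested.

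With the replicate block the counts in the other comparisons did not change, 6 and 1 in TIA1 versus HuR and 5 and 1 in TIAR versus HuR. The deviations of equally numbered arrays from their line's mean correlated between -0.09 and 0.184, so the numbers were not taken to pair the samples. A fit of 7 arrays without GFP 1, added after seeing the data, also gave 6 and 1, and 5 and 1. The counts of array order without GFP 1 in the report were also added after seeing the data. Of 167 refits of the 14 called fold changes, 131 kept their call, 36 lost it and 0 changed sign, and leaving out an array leaves 1 line with a single array that is assumed to vary like the other. DHRS4, FAR2, HSD17B4, PECR and ABCD3 kept their calls in TIA1 versus HuR in all 12 refits. The medians over a class moved by more than the spread between arrays in 22 of 138 refits, and that of the enzymes and transporters in TIAR versus GFP went from -0.35 to 0.065 with the authors' table. With 2 arrays per line, precision is limited by their number, and PEX2 by signal near background.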
